A study of Rattus norvegicus with 12 samples.

Results

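The mitochondrial respiratory chain subunits are the nuclear-encoded protein components of the 5 enzyme complexes that carry out oxidative phosphorylation. They were followed here in the inferior colliculus (IC), the auditory centre of the midbrain, of rats made deaf in one ear. Members were the genes whose array probe carried exactly 1 gene symbol beginning with Ndufa, Ndufb, Ndufc, Ndufs, Ndufv, Uqcr, Cox4 to Cox8 or Atp5, or equal to Sdha, Sdhb, Sdhc or Sdhd. Assembly factors and symbols beginning with LOC or RGD were left out, and the brightest probe stood for a gene. The rule uses names and mean brightness over all 12 arrays, and no difference between groups. It gave 91 members of 18166 genes measured. Of these, 75 are subunits by name and 16 carry a symbol that marks a copy (an added l or ps with a number, or b), 5 of which RefSeq lists as pseudogenes. By complex, the 75 were 34 of complex I, 4 of complex II, 7 of complex III, 16 of complex IV and 14 of complex V. Complexes were assigned by the start of the symbol alone, so Ndufa4 and Ndufa4l2 count under complex I by name only.

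All rats were of the SD (Sprague-Dawley) strain. Per the labels, 20 had the right cochlea removed and 20 had a sham operation, an incision behind the ear that left the bony capsule of the middle ear closed, and the IC was taken 2 weeks later. The 4 groups of 3 arrays are left control, right control, left deaf and right deaf, where left and right name the side of the IC. The left IC lies opposite the removed cochlea and the right IC on its side. The sham operation did not open the ear, so hearing loss and the drilling of the ear cannot be told apart. The sources used here give neither age nor sex of the rats. They also leave unsaid how many rats an array stands for, and whether a left and a right array with the same number come from the same animals. The p-values thus measure only how far these arrays differ among themselves, and that spread may be technical.

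Complex I (NADH dehydrogenase) and complex II (succinate dehydrogenase) pass electrons from nutrients to ubiquinone. Complex III (cytochrome bc1) hands them to cytochrome c, and complex IV (cytochrome c oxidase) hands them to oxygen. Complexes I, III and IV pump protons as they do so, and complex V (ATP synthase) makes ATP from the resulting gradient. Most subunits are encoded in the nucleus and a small set in mitochondrial DNA. The IC is known for a high rate of glucose use at rest, and subunit transcripts are abundant in neurons.

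The labels conflict on the tissue: some fields say hippocampus, among them the series title, while the tissue entries, sample titles and design say IC. Of 11 markers of the midbrain tectum, which includes the IC, 7 had a mean log2 intensity above the median of all gene means (5.97). Tfap2d (9.60), Meis2 (9.34) and Gata3 (7.83) also lay above the upper quartile (7.33), while Pax7 (5.37) and Tfap2b (5.32) were among the 4 below the median. Of 9 markers of cortex and hippocampus, 5 lay below the median, among them Neurod6 (3.40), Tbr1 (4.42), Emx2 (4.59) and Emx1 (4.68). The other 4 lay above it, at 11.25 for Nrgn, 7.12 for Bcl11b, 7.02 for Wfs1 and 6.17 for Prox1. The arrays correlated with each other at 0.982 to 0.993. Right control 3 lay farthest from the other arrays on the first principal component, at 27.3, and right control 1 lay at -15.0 on the same axis. Summed log2 levels of 13 cerebellar markers were 78.3 to 85.6 on the right control arrays, highest on right control 3, and 75.3 to 77.4 on the other 9 arrays. In bulk tissue, fewer cells of a type and less RNA per cell cannot be told apart.

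The subunits were among the brighter genes, and their spread between arrays was that of other bright genes. Of the 75 subunits, 69 had a mean above the median of all gene means and 59 above the upper quartile. A probe's brightness also depends on its sequence, so it places a gene only roughly and gives no ratio between genes. The 6 subunits below the median were Cox4i2, Cox6b2, Cox7b2, Cox8b, Cox8c and Ndufa4l2, each of which is the tissue-restricted or inducible counterpart of a subunit with a widely expressed form. Within groups, the median standard deviation of a subunit (residual SD of the fit) was 0.0964 on the log2 scale. It was 0.0965 for all genes above the upper quartile and 0.152 for all genes. Ndufb9, an accessory subunit of complex I, had the smallest residual SD, 0.044. Atp5pd, subunit d of the stalk of ATP synthase, had the largest, 0.46, and ranged from 5.41 to 6.85 over the arrays. The 16 members named as copies were dimmer. Only 2 of them, Ndufs6-ps1 and Atp5hl1, lay above the median of all gene means. A probe for such a copy can take up transcript of the near-identical parent gene, so values of the copies are uncertain as to their source.

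**Figure D1:**
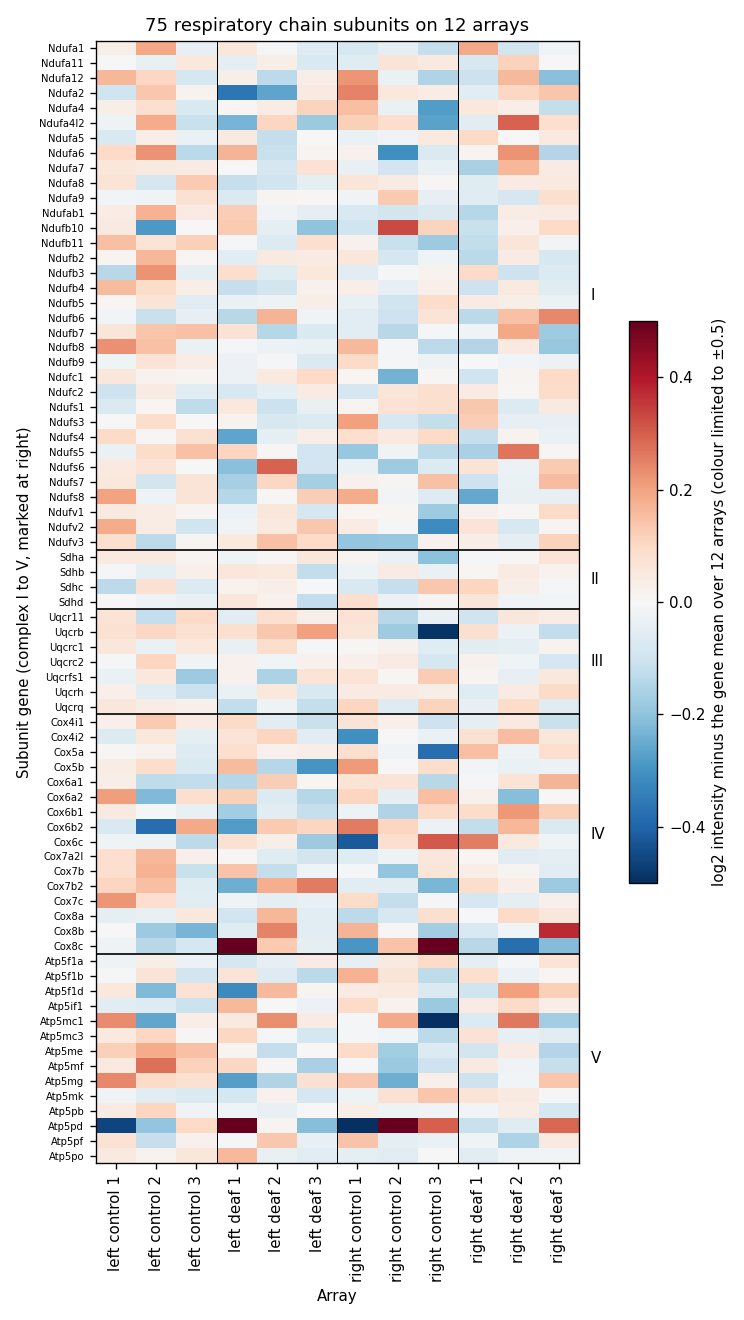
Each row is one of 75 subunits and each column one of the 12 arrays; colour is the log2 intensity minus the gene's own mean over the arrays, limited to 0.5 in either direction. No group of 3 columns is uniformly red or blue, and the strongest colours are single cells of Atp5pd (right control 1, right control 2 and left deaf 1), Cox8c (left deaf 1 and right control 3) and Atp5mc1 (right control 3).

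Sequence motifs shared by subunit promoters were counted, and 2 stretches are shown, because NRF1 (nuclear respiratory factor 1) and GABP (NRF2, an ETS-family factor) are known regulators of subunit genes. RefSeq (build GRCr8) promoters, from 250 bases before to 50 bases after the gene start, were found for 74 members, 67 of them among the 75 subunits. The letters GCGC, any base and TGCGC in a row, read on both strands as the NRF1 motif, occurred in 12 of these 67 promoters (17.9%), in 6.05% of 18932 promoters of other protein-coding genes and in 4.71% of all 27457 promoters in the table. The letters CCGGAAG, read on both strands as the ETS motif, occurred in 19 of 67 (28.4%), 11.2% and 9.22%. Either motif occurred in 30 of 67 (44.8%), against 16.0% of the other protein-coding promoters. GC content was 56.2% in the subunit promoters and 55.1% in those of the other protein-coding genes. The NRF1 letters were found in 7 of 32 promoters of complex I and in 0 of 13 of complex IV. A match is a description of these letters and not a site of binding. Atp5me was the 1 promoter with both motifs, and it is shown with Ndufv3, which held the NRF1 motif. Other members described below held 1 of them as well: Ndufb4, Ndufs6 and Sdha the NRF1 letters, and Atp5f1a, Atp5mg, Cox4i1, Cox5b, Cox8a, Ndufa2 and Uqcrq the ETS letters. The stretches below run 5′ to 3′ on the plus strand of GRCr8, at chr14:1464774-1464859 for Atp5me and chr20:9613737-9613766 for Ndufv3, both upstream of the start, and capitals mark the motifs (the ETS letters of Atp5me and the NRF1 letters of Ndufv3 read on the opposite strand):
Atp5me: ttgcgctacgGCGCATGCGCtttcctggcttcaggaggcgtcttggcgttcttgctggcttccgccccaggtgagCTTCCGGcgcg
Ndufv3: cagaatgcgcGCGCAAGCGCttggccccac

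In the left IC, opposite the removed cochlea, no subunit passed the test after ablation. Values were compared with limma on all 12 arrays, with p-values adjusted by Benjamini-Hochberg over 18166 genes and a threshold of 0.05. It called 0 of 91 members and 0 of 18166 genes (0%). At an unadjusted p under 0.05 it listed 1 member, the copy Uqcr10-ps1, and 670 genes (3.69%). With each array left out in turn that count of members ran from 0 to 5. An exact permutation test of 3 arrays against 3 cannot give a p below 0.1, so it was not used. Changes are log2 differences, deaf minus control, with their standard error (SE). The subunits' changes lay between -0.25 and 0.30, with a median of -0.024 against -0.0051 over all genes. Of the 75 subunits, 47 had the lower mean in deaf rats (62.7%), where 51.8% of all genes did. The 95% interval of the change stayed within a 1.5-fold difference in either direction for 73 of 75 subunits, and within 2-fold for all 75. The exceptions were Atp5pd and Cox8c. The median half-width of these intervals was 0.20.

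By complex, means were lower in the left deaf IC for 25 of 34 subunits of complex I, with a median change of -0.053, and for 10 of 14 of complex V (-0.018). The summed log2 levels of the 34 complex I subunits were 283.8 to 285.4 on the left control arrays and 282.4 to 283.3 on the left deaf arrays, without overlap. On the right they were 282.2 to 284.3 in control and 282.3 to 285.1 in deaf. The sum over all subunits not named as copies overlapped on the left, at 624.2 to 626.9 in control and 622.7 to 625.0 in deaf. Those of complexes II to V overlapped there as well. On the right, the complex II sum was higher in deaf without overlap, at 36.87 to 36.98 against 36.67 to 36.80 in control. The other sums overlapped on the right. Among the gene lists read further below, only that of glycolysis and lactate was also without overlap on the left. It ran from 143.38 to 143.86 in control and from 142.49 to 143.35 in deaf. Complex III had 3 of 7 lower (0.0054), complex IV 8 of 16 (0.0083), and complex II 1 of 4 (0.0056). All 3 deaf arrays lay below all 3 controls for 8 of 91 members, against 5.7% of all genes, and above for 3, against 4.61%. Summed levels of 13 neuronal markers were 130.6 to 130.8 in left control and 130.0 to 130.4 in left deaf, and those of 11 oligodendrocyte markers were 104.6 to 104.7 and 103.5 to 104.3. Their part in the lower means was not tested.

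The lowest p-values on the left among subunits not named as copies belonged to Atp5mg and Atp5me, small membrane subunits of ATP synthase. Atp5mg (Entrez 300677), subunit g, read 7.32, 7.18 and 7.16 in left control and 6.81, 6.93 and 7.16 in left deaf. Atp5me (Entrez 140608), subunit e, read 8.73, 8.80 and 8.75 against 8.62, 8.49 and 8.61. Both proteins sit in the membrane part of the enzyme, where ATP synthase forms dimers. The Atp5me arrays of the groups did not overlap, whereas left deaf 3 reached the lowest Atp5mg control. The change was -0.25 (SE 0.12) for Atp5mg and -0.19 (SE 0.089) for Atp5me, and neither passed (limma adjusted p = 1.00 for both). In the right IC the same genes differed by 0.04 and -0.02, respectively.

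Copies gave the other low values on the left. Uqcr10-ps1 (Entrez 100361126), a copy of a complex III subunit, read 5.46, 5.68 and 5.36 in control and 5.30, 4.99 and 5.19 in deaf (-0.34, SE 0.14, limma adjusted p = 1.00). Ndufb4l3 (Entrez 499131), a copy of complex I subunit Ndufb4, read 4.27, 4.34 and 4.25 against 3.63, 3.67 and 4.13 (-0.47, SE 0.24). In both, the groups did not overlap, and both genes are dim. Ndufb4 itself, an accessory subunit in the membrane arm of complex I, read 8.69, 8.63 and 8.57 against 8.42, 8.44 and 8.56 (-0.16, SE 0.078), again with no overlap.

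Among the higher means on the left, that of Atp5if1 (Entrez 25392) belonged to the inhibitor that keeps ATP synthase from running in reverse. It read 9.34, 9.33 and 9.28 in control and 9.55, 9.40 and 9.36 in deaf, without overlap. The change was 0.12 (SE 0.089, limma adjusted p = 1.00), and 0.064 without left deaf 1. Cox8c (Entrez 360229), a dim form of complex IV subunit 8, read 4.18, 4.07 and 4.13 against 4.74, 4.34 and 4.17, a change of 0.29 (SE 0.18) that was 0.13 without left deaf 1. The copies Atp5mc1l1 (0.19, SE 0.12) and Ndufs6-ps1 (0.15, SE 0.11) came next by p among the higher means, and their arrays overlapped. With an array left out they ran from 0.11 to 0.32 and from 0.090 to 0.23. The largest differences upward had larger errors: 0.36 (SE 0.29) for the dim copy Atp5mgl4, whose arrays did not overlap, and 0.30 (SE 0.32) for Atp5pd, whose arrays did.

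**Figure D2:**
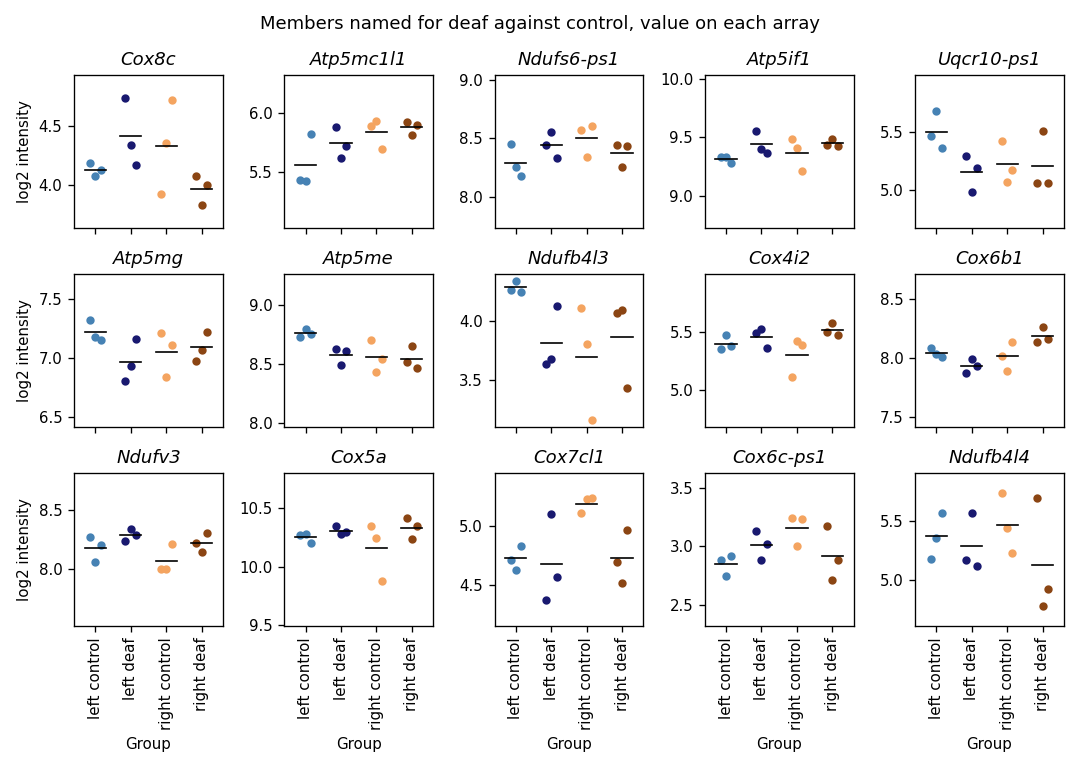
Each panel shows a member named for deaf against control in the left or right IC; points are single arrays (log2 intensity), bars are the means of 3 arrays, and every panel spans the same height. Left deaf lies below left control without overlap in Atp5me, Uqcr10-ps1, Ndufb4l3 and Cox6b1, and above it in Atp5if1 and Cox5a. Right deaf lies below right control without overlap in Cox7cl1 and above it in Cox4i2. In Cox5a the lowest left deaf array (10.282) is barely above the highest left control (10.280), and another probe of the gene gave -0.03 (SE 0.070) on the left. A single right control array of Cox5a lies apart at 9.88.

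In the right IC, ipsilateral to the removed cochlea, no subunit passed the test either. With limma 0 of 91 members and 0 of 18166 genes (0%) were called. At an unadjusted p under 0.05 the members listed were Cox4i2, higher, and the copy Cox7cl1, lower, against 783 genes (4.31%), and with each array left out in turn that count of 2 ran from 0 to 5. The subunits' changes lay between -0.36 and 0.21, with a median of 0.028 against 0.0014 over all genes, and 34 of 75 had the lower mean (45.3%, against 49.5% of all genes). Over all 91 members the median was 0.0052, -0.0027 with right control 2 left out and 0.030 with right control 1 left out. The interval stayed within 1.5-fold for 73 of 75 subunits, again all except Atp5pd and Cox8c. Lower means were found for 15 of 34 subunits of complex I, 1 of 4 of complex II, 5 of 7 of complex III, 7 of 16 of complex IV and 6 of 14 of complex V. Arrays did not overlap for 2 of 91 members higher (Cox4i2 and Ndufs6), against 3.64% of all genes, and 3 lower (Cox5b, Cox7cl1 and Ndufs4), against 3.84%.

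Cox4i2 (Entrez 84683) is the isoform of complex IV subunit 4 known to be induced at low oxygen. It read 5.11, 5.42 and 5.38 in right control and 5.49, 5.57 and 5.47 in right deaf. The change was 0.21 (SE 0.094, limma adjusted p = 1.00) and 0.11 without right control 1, the lowest of the 12 arrays for this gene. Cox6b1 (Entrez 688869), subunit 6B at the outer face of complex IV, read 8.02, 7.89 and 8.14 against 8.13, 8.26 and 8.16 (0.17, SE 0.083), with overlap, and was at 0.11 without right control 2. A second, dim Cox6b1 probe (mean 3.18) gave -0.02 (SE 0.17). Ndufv3 (Entrez 64539), a small subunit of the NADH-oxidising module, read 7.99, 8.00 and 8.21 against 8.22, 8.14 and 8.30 (0.16, SE 0.090). Another Ndufv3 probe gave -0.02 (SE 0.13), a size below its standard error. On the left that probe gave 0.14 (SE 0.13), where the first gave 0.11 (SE 0.090). Cox5a (Entrez 252934), subunit 5A of complex IV, read 10.35, 10.24 and 9.88 against 10.41, 10.24 and 10.35 (0.17, SE 0.11). That value rested on right control 3, was 0.036 without it and 0.27 without right control 1, and another probe of the gene gave 0.03.

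Of the lower values on the right, Cox7cl1 (Entrez 100360357), a copy of complex IV subunit 7C, read 5.11, 5.23 and 5.23 in control and 4.69, 4.51 and 4.97 in deaf, with no overlap. Its change was -0.47 (SE 0.17, limma adjusted p = 1.00). Cox7c itself differed by -0.02 on that side, inside its standard error of 0.089. Cox8c read 3.92, 4.36 and 4.72 against 4.07, 3.83 and 4.00 (-0.36, SE 0.18), which without right control 3 was -0.17 and without right control 1 was -0.57. The copies Cox6c-ps1 (-0.24, SE 0.12) and Ndufb4l4 (-0.34, SE 0.22) had overlapping arrays. Cox6c-ps1 was at -0.36 without right deaf 1 and -0.13 without right deaf 2. Ndufb4l4 was at -0.62 and -0.16 without the same arrays, and at -0.20 without right control 1. On the right control arrays the cerebellar markers were higher than on right deaf, as given above, and oligodendrocyte markers summed to 104.5 to 106.2 against 103.4 to 104.4. Forebrain markers summed to 54.9 to 55.5 against 52.7 to 54.7, and choroid plexus and ependymal markers to 42.4 to 43.1 against 43.8 to 44.6. Their part in these values was not tested.

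**Figure D3:**
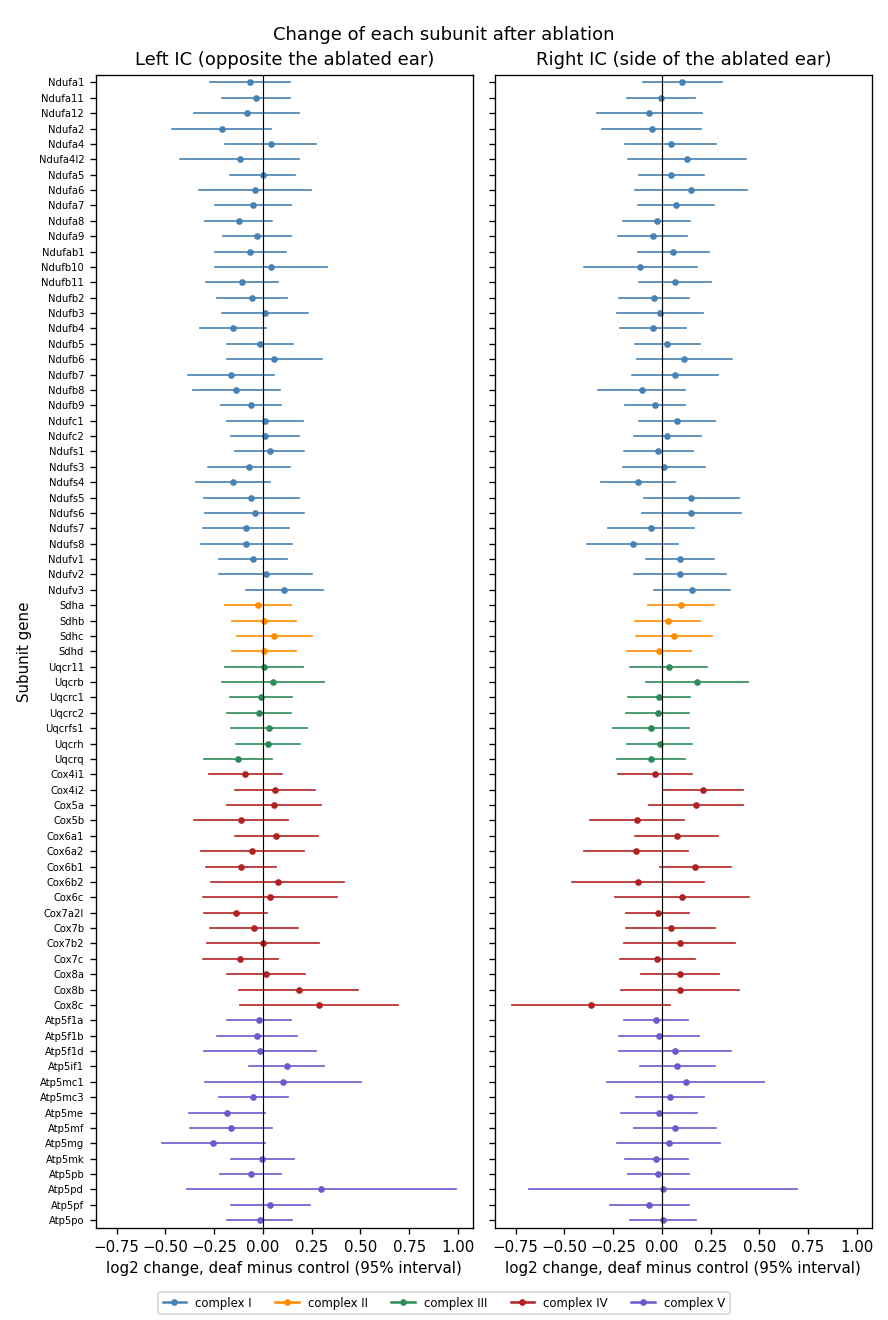
Points are the log2 changes (deaf minus control) of the 75 subunits in the left and the right IC, lines are 95% intervals from limma, and colours mark complexes I to V. All points lie between -0.36 and 0.30, and 73 of 75 intervals on each side stay within a 1.5-fold difference.

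Taken as the mean of both sides, no subunit passed the test after ablation. Limma called 0 of 91 members and 0 of 18166 genes (0%), with 1 member and 823 genes (4.53%) at an unadjusted p under 0.05. The 75 subunits lay between -0.14 and 0.15, with a median of -0.0036 against -0.0014 over all genes, and 40 had the lower mean (53.3%, against 50.6%). Over all 91 members the median, also -0.0036, was 0.0027 without left deaf 3 and -0.014 without left control 3, so 1 array turned its sign. The interval stayed within 1.5-fold for 74 of 75, the exception being Atp5pd. For 0 members did all 6 deaf arrays lie beyond all 6 controls, where 0.27% of all genes did. The member with the smallest p was Ndufs4 (Entrez 499529), an accessory subunit of complex I whose loss causes Leigh-like encephalopathy. It read 9.26, 9.18 and 9.25 in left control and 8.90, 9.12 and 9.20 in left deaf. On the right it read 9.25, 9.22 and 9.27 in control and 9.05, 9.19 and 9.14 in deaf. The mean change was -0.14 (SE 0.062, limma adjusted p = 1.00), with every right deaf array below every right control. Among subunits not named as copies, the smallest p of each other complex belonged to Cox4i2 at 0.13 (SE 0.067) for complex IV, Atp5if1 at 0.10 (SE 0.063) for complex V, Uqcrq, a small subunit of complex III, at -0.09 (SE 0.057), and Sdhc at 0.06 (SE 0.063) for complex II. Cox4i2 was at 0.087 without right control 1, Atp5if1 at 0.061 without right control 3, and Sdhc ran from 0.037 to 0.099 with an array left out. The remaining named values were 0.13 for Ndufv3, 0.12 for Cox5a, -0.10 for Ndufb4, -0.26 for the copy Cox7cl1 and -0.18 for the copy Uqcr10-ps1. The Cox5a value was 0.047 without right control 3, and its other probe gave 0.00026. The second Ndufv3 probe gave 0.06 (SE 0.091).

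Complex II is made of 4 nuclear-encoded subunits only. Sdha, the flavoprotein that oxidises succinate, read 10.04, 10.03 and 10.00 in left control, 9.96, 9.99 and 10.04 in left deaf, 10.00, 9.95 and 9.78 in right control, and 9.98, 9.99 and 10.06 in right deaf. Sdhc, a membrane anchor, read 9.29, 9.50 and 9.35, then 9.44, 9.46 and 9.43, then 9.35, 9.31 and 9.56, then 9.53, 9.46 and 9.41 in the same order of groups. The changes of the 4 genes were -0.02 to 0.06 on the left and -0.01 to 0.10 on the right, and the arrays of the groups overlapped in all 4. Of the subunits that form the catalytic head of ATP synthase, Atp5f1a differed by -0.02 on the left and -0.03 on the right (SE 0.075 each). Atp5f1b, which holds the catalytic sites, differed by -0.03 and -0.01 (SE 0.094 each).

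In sham-operated rats the left and right IC were compared as the baseline between sides. Limma called 0 of 91 members and 0 of 18166 genes (0%), with 8 members and 900 genes (4.95%) at an unadjusted p under 0.05. That count of 8 was 1 without left control 2 and 10 without right control 1. The mean was lower on the left for 30 of 75 subunits (40%), where it was for 50.4% of all genes, and higher for the other 45, and the median difference, left minus right, was 0.035 against -0.0013. All 3 left arrays lay above all 3 right arrays for 14 of 75 subunits (18.7%), against 4.96% of all genes, and below for 2 subunits, against 4.84%. Of these 14, 9 belong to complex I and 4 to complex V. Without right control 3 the left mean was higher for 41 of 75 (54.7%, against 47.8% of all genes), and all left arrays lay above both remaining right arrays for 17 (22.7%, against 9.3%). Over all 91 members the median of 0.027 was then 9.7e-05. The copies lay the other way, with a lower mean on the left for 11 of 16.

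Summed levels of the cerebellar markers (75.8 to 76.7 on left control, 78.3 to 85.6 on right control), of 9 forebrain markers (52.9 to 53.8 and 54.9 to 55.5), of 9 microglial markers (58.2 to 60.2 and 60.3 to 61.1) and of 8 choroid plexus and ependymal markers (43.9 to 45.4 and 42.4 to 43.1) did not overlap between these groups. Their part in the subunits' side difference was not tested. The left control arrays also enter the left comparison after ablation, so the higher left control values and the lower left deaf means given above share those arrays.

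Of the members with the smallest p in this comparison, Atp5mf (Entrez 690441), subunit f of ATP synthase, read 6.50, 6.72 and 6.57 on the left and 6.44, 6.27 and 6.35 on the right (0.24, SE 0.096). Ndufb11 (Entrez 299310), an accessory subunit of the complex I membrane arm, read 8.50, 8.41 and 8.47 against 8.37, 8.24 and 8.16 (0.20, SE 0.085). Uqcrb (Entrez 362897), the ubiquinone-binding subunit of complex III, read 6.63, 6.66 and 6.63 against 6.62, 6.38 and 6.06 (0.29, SE 0.12). In all 3 the groups did not overlap, yet none passed (limma adjusted p = 0.934 for each). The Uqcrb difference was 0.14 without right control 3, its lowest array. The copies gave 0.59 (SE 0.24) for Ndufb4l3, which was 0.33 without right control 3, -0.47 (SE 0.17) for Cox7cl1, -0.31 (SE 0.12) for Cox6c-ps1, -0.28 (SE 0.12) for Atp5mc1l1 and -0.21 (SE 0.11) for Ndufs6-ps1.

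**Figure D4:**
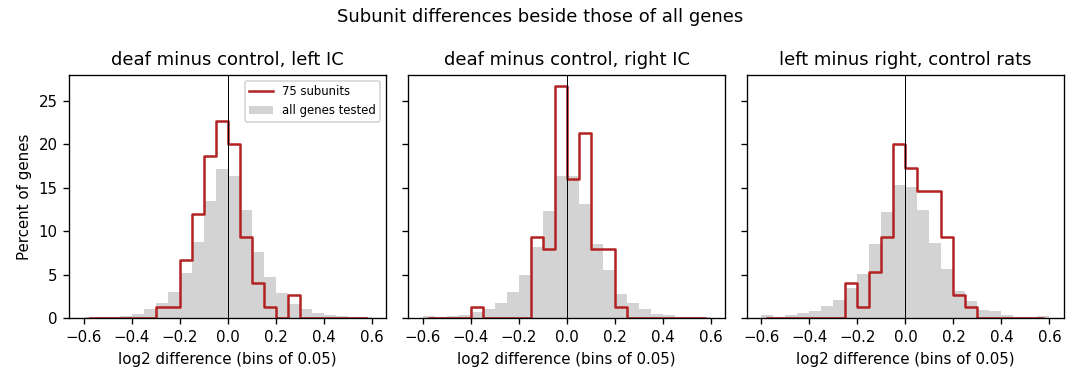
Histograms of log2 differences in bins of 0.05 for the 75 subunits (line) and all genes tested (grey), as percent of genes, for deaf minus control in the left and right IC and for left minus right in control rats. Subunits lie between -0.36 and 0.30 in all 3 panels, with medians of -0.024, 0.028 and 0.035.

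In deaf rats, limma called 0 of 91 members and 0 of 18166 genes (0%) between the left and right IC, with 3 members and 607 genes (3.34%) at an unadjusted p under 0.05. The mean was lower on the left for 45 of 75 subunits (60%, against 52.2% of all genes), and the median difference was -0.021 against -0.0057. Over all 91 members the median, also -0.021, was -0.0026 without left deaf 3 and -0.010 without left deaf 2. Arrays did not overlap for 2 of 91 members higher on the left, against 3.73% of all genes, and 1 lower, against 4.58%. Cox6b1 had the smallest p of them, at 7.87, 7.99 and 7.93 on the left and 8.13, 8.26 and 8.16 on the right, a difference of -0.26 (SE 0.083, limma unadjusted p = 0.00985, adjusted p = 1.00). Its second probe gave -0.22 (SE 0.17). Cox8c differed by 0.45 (SE 0.18) and the copy Atp5mgl4 by 0.53. The third member at that unadjusted threshold was Ndufa2, an accessory subunit of complex I, at -0.25 (SE 0.12), whose arrays overlapped. Neuronal markers summed to 130.0 to 130.4 on the left and 131.0 to 131.1 on the right in deaf rats, and their part in these values was not tested.

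Whether the change after ablation differed between sides was tested as the interaction, the left change minus the right change. Limma called 0 of 91 members and 0 of 18166 genes (0%), with 3 members (Cox6b1, Cox6c-ps1 and Cox8c) and 622 genes (3.42%) at an unadjusted p under 0.05. The term was below 0 for 55 of 75 subunits (73.3%), where it was for 51.0% of all genes, with a median of -0.044 against -0.0038. For complex I it was below 0 for 29 of 34 (median -0.053). Without right control 3 the count over all 91 members went from 62 to 54. Their median of -0.033 was -0.053 without left deaf 2, -0.051 without right control 1 and -0.050 without right deaf 3. For Cox6b1 the term was -0.28 (SE 0.12) and for Cox8c 0.65 (SE 0.26), with limma adjusted p = 1.00 for both. The second Cox6b1 probe gave 0.0045 (SE 0.24). The interaction uses the arrays of both other comparisons and adds no new samples to them.

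For several subunits, tissue-restricted or inducible isoforms exist beside a widely expressed one. Probes for 14 members of these isoform sets were measured. Over the 12 arrays Cox4i1 ran from 9.18 to 9.43, Cox6a1 from 11.25 to 11.55, Cox6b1 from 7.87 to 8.26, Cox7b from 9.49 to 9.86, Cox8a from 10.05 to 10.34 and Ndufa4 from 10.33 to 10.76. These widely expressed forms all lay above the upper quartile of gene means on every array. Cox4i2 ran from 5.11 to 5.57, Cox6a2 (the heart and muscle form) from 5.94 to 6.38, Cox6b2 (known from testis) from 4.91 to 5.55 and Cox7b2 from 2.73 to 3.23. Cox8b (a heart and muscle form) ran from 4.47 to 5.08, Cox8c from 3.83 to 4.74 and Ndufa4l2, known to be induced by hypoxia-inducible factor, from 5.61 to 6.17. Since probes differ in brightness, these ranges give no ratio between isoforms. Cox7a2l, which helps to join complexes III and IV into supercomplexes, ran from 8.41 to 8.66. It was at 8.58, 8.66 and 8.52 in left control and 8.50, 8.44 and 8.41 in left deaf, without overlap (-0.14, SE 0.074, limma adjusted p = 1.00). After ablation the changes of the 14 isoforms were -0.14 to 0.29 on the left and -0.36 to 0.21 on the right, with Cox8c at an end of both ranges.

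The subunits were also read array by array and against each other. The median deviation of the 75 subunits from their own means was highest on left control 2 (0.041) and lowest on left deaf 3 (-0.028). Between 40% and 64% of them lay above their own mean on an array, where this share was 46.7% to 52.3% over all genes. For complex I it was 32.4% to 76.5%. A share over few genes varies more than one over all genes by the number counted alone. Across the 12 arrays, after each group's mean was subtracted, the median Pearson correlation over 2775 pairs of subunits was 0.026, and 0.0031 over pairs of all genes above the upper quartile. Within complexes the medians were 0.031 for complex I, -0.16 for complex II, -0.062 for complex III, 0.0080 for complex IV and -0.062 for complex V. These are descriptions over arrays that share normalization, and the medians over all subunits lay near 0.

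Genes that build, regulate, feed or bypass the chain were read from 6 lists, of which 129 of 152 genes were measured. Limma called 0 of the genes of each list in either deaf against control comparison. At an unadjusted p under 0.05 it listed 1 of 41 assembly factors on the left, where 3.69% of all genes were listed. On the right it listed 4 of 41 assembly factors and 2 of 16 glycolysis and lactate genes, where 4.31% of all genes were listed. It listed 0 genes of the other lists on either side. On the left, means were lower for 25 of 41 assembly factors (median -0.034), 13 of 23 regulators of mitochondrial biogenesis (-0.010), 7 of 21 carriers and partners (0.022), 10 of 16 genes of the tricarboxylic acid cycle (-0.017), 10 of 16 of glycolysis (-0.012) and 5 of 12 uncoupling and antioxidant genes (0.044). On the right these counts were 20 of 41, 11 of 23, 10 of 21, 7 of 16, 5 of 16 and 8 of 12. Of all genes, 51.8% had the lower mean on the left and 49.5% on the right.

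Of these lists the gene with the smallest p is given for each side. Among assembly factors it was Uqcc3, needed for complex III, at -0.19 (SE 0.072) on the left and Atpaf2, a chaperone of the catalytic part of ATP synthase, at 0.20 (SE 0.074) on the right. Among regulators it was Mterf1 at -0.14 (SE 0.096) and Tfam, which packages mitochondrial DNA, at 0.17 (SE 0.099). Among carriers and partners it was the ubiquinone synthesis genes Coq4 at -0.18 (SE 0.11) and Coq5 at 0.18 (SE 0.11). For the tricarboxylic acid cycle it was Idh3g, a subunit of isocitrate dehydrogenase, at -0.14 (SE 0.095) and Suclg2, of succinyl-CoA ligase, at -0.11 (SE 0.11). For glycolysis it was Pfkp, a phosphofructokinase, at -0.17 (SE 0.088) and Hk2, a hexokinase, at 0.19 (SE 0.085). For the uncoupling and antioxidant genes it was Gpx4, a lipid peroxidase, at -0.11 (SE 0.070) and Ucp2, an uncoupling protein, at -0.14 (SE 0.097). None passed (limma adjusted p = 1.00 for each), and the largest of these 12 sizes was 0.20.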

How the data were processed

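Per the labels' protocols, total RNA was made into biotin-labelled cDNA and hybridised to 1-colour Affymetrix arrays. The authors deposited log2 intensities, which ran from 1.33 to 13.1, already comparable between arrays (equal ranks on the 12 arrays lay within 0.0995). The sources used here name neither the array model nor the software that normalized the values. Of 29489 probes, 18511 had 1 symbol, 575 several and 10403 none. The brightest probe per gene was kept, with no filter, giving 18166 genes. Of the 91 members 5 had several probes, and for all 91 the Entrez identifier matched RefSeq, with 0 symbols changed.

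With limma 3.58.1 (R 4.3.3), 4 group means and 6 contrasts were estimated (8 residual degrees of freedom, two-sided, Benjamini-Hochberg over all genes), and the fit was tested on simulated data. Named members were the 4 of smallest p in each direction for deaf against control (left, right and mean of both sides) and for left against right in control rats, the isoform sets, the subunit of smallest p per complex (mean of both sides, copies left out) and, per list and side, the gene of smallest p; a few others were named after their values were seen (Ndufb4 and Cox7c beside their copies, Sdha, Atp5f1a, Atp5f1b, Atp5pd, Atp5mc1, Ndufb9, Ndufa2, Atp5mgl4 and the non-overlapping members). The members, lists and tests were chosen with earlier results of these data known. Left and right arrays of the same condition and number, the only ones that could share rats, were compared by their deviations from group means. They correlated at 0.10, -0.013 and 0.057 in control and at 0.15, -0.056 and -0.043 in deaf rats. These values cannot settle a pairing, and the labels give none, so the numbers were not taken to pair arrays. The number of arrays limits the precision. Alternatives were quantile normalization, median centring, genes above the median level, a gene's mean probe, weights for arrays, robust estimation with a variance trend, a fit of the compared groups alone, a replicate block, an unadjusted threshold and leaving out each array.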

Additional observations from a re-analysis of the deposited data

How the results depend on the processing

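Under every alternative run, 0 of the 91 members passed the adjusted threshold in any of the 6 comparisons. The 33 values followed were the 4 of smallest p in each direction of the comparisons with named members, and Sdhc. These 33 kept their direction in 635 of 635 refits, with a lowest limma adjusted p of 0.347. They were chosen by p on the same arrays, so a kept direction adds little. Uqcrq, the list genes and the other named members were not followed. At an unadjusted p under 0.05 the members listed were 1 (left), 2 (right), 1 (mean of both sides), 8 (left against right in control rats), 3 (left against right in deaf rats) and 3 (interaction). Counts of all genes past the threshold, 0 in each comparison, were 1 for the left and 1 for deaf rats between sides with genes above the median level. With a variance trend and robust estimation they were 1 and 2. With arrays of the same number joined as a replicate block they were 1 for control rats between sides and 1 for the interaction, and no member was among them; the median over the members did not move, at -0.019 on the left, since the design is balanced. With each array left out in turn, genes past the threshold ranged from 0 to 1 on the left and for the mean of both sides. The members' median ranged from -0.0027 to 0.030 on the right, and from 9.7e-05 to 0.043 for control rats between sides. Fits with only the groups compared were not run for the mean and interaction, which use all 4 groups. The cause of these differences was not tested. Counts at the unadjusted threshold moved by over 1.5 times in 49 further settings, mostly with an array left out. Members with a wide spread, up to a residual SD of 0.46, limit what 3 arrays per group can show.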
